A study of Mus musculus with 10 samples.

Results

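The transcripts described here are 34 genes that mark the epithelial, endothelial and stromal cells of the lung, read in RNA from sorted lung eosinophils. They were chosen by gene symbol from a list of cell type markers, as transcripts that a pure eosinophil sort is not expected to hold, and all 34 were found among the 35725 genes of the count table. The 10 libraries came from male mice, 5 from P2ry14-null animals, which lack the UDP-sugar receptor gene P2ry14, and 5 from C57BL/6J mice with the gene intact (wild type, WT). All animals had been sensitized through the oropharynx with 50 µg ovalbumin (OVA) and 20 µg of a protease of the mould Aspergillus oryzae on 2 occasions, and breathed an aerosol of 1% OVA 7 days later. Eosinophils were sorted by flow cytometry from the lungs 16 h after that challenge. The background strain of the P2ry14-null line, the ages, and whether each library came from a separate mouse are not stated, so p-values measure only the spread between these libraries, which may be technical.

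A sorted population carries RNA of other cells when such cells, their fragments or their free RNA pass the gate. In the alveolus, type II cells make surfactant and type I cells form the thin gas-exchange surface. Secretory club cells line the airways, endothelial cells line the vessels, and fibroblasts and mural cells lay down collagen and elastic fibres. In bulk RNA, fewer cells of a type and less RNA per cell cannot be told apart.

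Libraries held 67161968 to 185124080 reads in genes. Levels are in counts per 1000000 reads (CPM) on library sizes scaled by the trimmed mean of M-values (TMM), and the 3 reads that a count of 0 would still allow correspond to 0.0165 to 0.0445 CPM. P2ry14 read 190.4 to 229 CPM in WT and 21.8 to 24.2 CPM in P2ry14-null libraries, so each library matched its label. The eosinophil identity of the sort was read from 12 genes, among them the surface lectin Siglecf, the eotaxin receptor Ccr3 and the granule protein gene Prg2. Their summed level lay between 14050 and 15280 CPM in WT and between 14200 and 15010 CPM in P2ry14-null. Alox15 and Cd24a, at 5031 and 4277 CPM on average, supplied most of it, so the sum mainly follows these 2 genes. Between genotypes edgeR called 0 of the 12, where 0.0385% of all tested genes were called. At an unadjusted p under 0.05 there was 1 of the 12, against 4.13% of all tested genes. Siglecf read 1282 ± 63.2 CPM in WT and 1232 ± 37.7 CPM in P2ry14-null (SD, n = 5 each). P2ry14-null library 2 stood apart from the other 9 in the transcripts described below, and genotype differences that rest on it are given with and without it. It was singled out after its values were seen, so fits without it show only how far results depend on it. Gene coordinates are on build mm10.

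Every one of the 34 genes had reads in every library, with 2 reads as the lowest count, for the airway gene Scgb3a2 in P2ry14-null library 5. The mean over all libraries was at least 10 CPM for 6 genes, between 1 and 10 CPM for 10 and below 1 CPM for 18. Their levels summed to 573 ± 25.6 CPM in WT and 581 ± 95.1 CPM in P2ry14-null (SD, n = 5 each), and to 539 ± 17.2 CPM without P2ry14-null library 2. Napsa and Pecam1 supplied most of each sum.

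**Figure D1:**
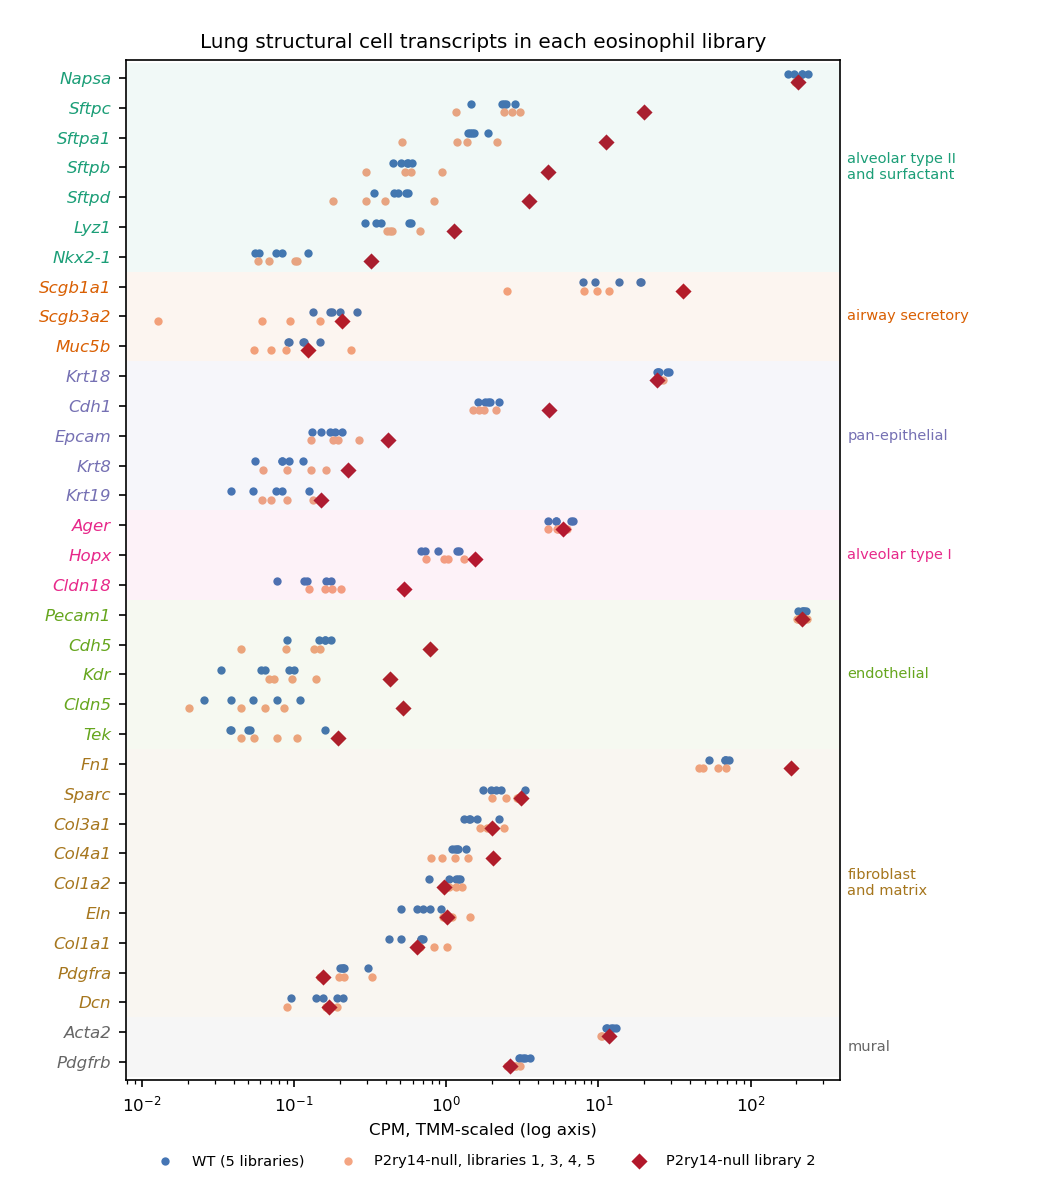
Level of each of the 34 transcripts in every library, in CPM on a log axis, with WT libraries in blue, P2ry14-null libraries in orange and P2ry14-null library 2 as a red diamond. Napsa and Pecam1 lie near 200 CPM in all 10 libraries, while the surfactant genes sit together at low levels in 9 libraries and far to the right in P2ry14-null library 2.

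The genes for the 4 surfactant proteins were low in 9 libraries and high in 1. Sftpc (gene ID 20389, chromosome 14, 70520941 to 70524081, minus strand) encodes the hydrophobic surfactant protein C, made by alveolar type II cells. Sftpc stood at 2.81, 2.40, 1.46, 2.48 and 2.33 CPM in WT libraries 1 to 5 and at 2.70, 19.9, 2.40, 3.06 and 1.17 CPM in P2ry14-null libraries 1 to 5. P2ry14-null library 2 was the highest, at 8.27 times the median of the other 9, and P2ry14-null library 5 the lowest. Its reads numbered 3065 in P2ry14-null library 2 and 182 to 394 in the others, so the gene was well above the detection limit everywhere.

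Sftpa1, for the collectin surfactant protein A, stood at 1.49, 1.89, 1.38, 1.52 and 1.43 CPM in WT libraries 1 to 5 and at 1.17, 11.2, 1.37, 2.17 and 0.513 CPM in P2ry14-null libraries 1 to 5. Sftpb, for the hydrophobic surfactant protein B, read 4.66 CPM in P2ry14-null library 2 and 0.295 to 0.940 CPM in the other 9. Sftpd, for the collectin surfactant protein D, read 3.51 CPM there and 0.179 to 0.831 CPM elsewhere. All 4 genes were highest in P2ry14-null library 2 and lowest in P2ry14-null library 5, and the WT range lay inside the P2ry14-null range for each. Summed over the 4, WT libraries 1 to 5 held 5.34, 5.30, 3.62, 5.03 and 4.92 CPM, against 4.70, 39.2, 4.75, 7.0 and 2.15 CPM in the 5 P2ry14-null libraries in the same order.

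The mix of the 4 surfactant transcripts changed less than their amount. Sftpb reads made up 11.9% (Wilson 95% interval 11.1 to 12.7) of the reads of the 4 genes in P2ry14-null library 2. That share was 9.41% (Wilson 95% interval 7.47 to 11.8) in WT library 1, the lowest, and 13.7% (Wilson 95% interval 10.4 to 17.8) in P2ry14-null library 5, the highest. Sftpc took 50.7% (Wilson 95% interval 49.5 to 52.0) in P2ry14-null library 2, between 40.2% (Wilson 95% interval 36.6 to 44.0) in WT library 3 and 57.4% (Wilson 95% interval 51.9 to 62.7) in P2ry14-null library 1. The intervals cover counting error only. Amounts differed 7.97-fold between P2ry14-null library 2 and the median of the others, while no share of a single gene changed by as large a factor. The shares of Sftpc and Sftpa1 could not have risen by that factor, since a share cannot exceed the whole. The mix was not constant, however: the Sftpc interval of P2ry14-null library 2 did not overlap that of WT library 3. The same held for Sftpa1, with 28.4% (Wilson 95% interval 27.3 to 29.6) in P2ry14-null library 2 and 38.1% (Wilson 95% interval 34.5 to 41.9) in WT library 3. Sftpd took 8.95% (Wilson 95% interval 8.26 to 9.70) in P2ry14-null library 2, between 6.31% (Wilson 95% interval 4.12 to 9.54) in P2ry14-null library 1 and 11.9% (Wilson 95% interval 9.92 to 14.2) in P2ry14-null library 4.

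Promoters of 2 of these genes are shown because Nkx2-1, also among the 34 genes, encodes a transcription factor known to act on surfactant genes. Whether that factor bears on their shared peak in P2ry14-null library 2 was not tested. The runs are the 250 bases before the RefSeq start sites (GRCm38.p6), 5′ to 3′ on the gene's strand, with each CTCAAG, a core of sites that NKX2-1 is known to bind, in capitals. The Sftpa1 window is chr14:41131538-41131787 and the Sftpb window chr6:72304360-72304609, both on the plus strand.
Sftpa1: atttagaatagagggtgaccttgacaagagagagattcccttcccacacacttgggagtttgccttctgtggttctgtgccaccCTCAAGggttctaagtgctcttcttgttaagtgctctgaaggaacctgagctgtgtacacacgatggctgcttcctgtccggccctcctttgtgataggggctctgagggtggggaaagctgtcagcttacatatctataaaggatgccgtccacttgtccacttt
Sftpb: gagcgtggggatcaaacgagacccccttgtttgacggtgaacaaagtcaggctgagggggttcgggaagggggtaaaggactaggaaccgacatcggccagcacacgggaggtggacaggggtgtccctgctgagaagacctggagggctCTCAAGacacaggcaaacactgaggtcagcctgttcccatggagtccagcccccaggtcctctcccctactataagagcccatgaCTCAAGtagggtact
CTCAAG was searched on both strands. Sftpb held it 2 times, 100 and 15 bases before the start site, and Sftpa1 held it 1 time, 166 bases before. Of all 32851 promoter windows of this length that were searched, 13.3% held the motif at least 1 time and 0.998% at least 2 times. Promoter entries existed for 19 of the 34 genes, and 4 of the 19 held the motif, the others being Hopx and Pdgfra. Sftpa1, Sftpb and Hopx were highest in P2ry14-null library 2, while Pdgfra had the lowest ratio of the 34 there (0.743). The windows of Nkx2-1, Lyz1, Cldn18, Kdr, Tek, Cldn5, Epcam, Krt8 and Col4a1, also highest in that library, held it 0 times. Hopx and Cldn18 had more than 1 window, so a share of genes is not a share of windows. A match describes letters and not a bound site.

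Napsa, by contrast, was abundant and flat. It encodes napsin A, an aspartic protease that processes surfactant protein B in type II cells (gene ID 16541, chromosome 7, 44572445 to 44586846, plus strand). Napsa stood at 237, 216, 176, 218 and 192 CPM in WT libraries 1 to 5 and at 203, 206, 199, 195 and 199.6 CPM in P2ry14-null libraries 1 to 5. The level in P2ry14-null library 2 was 1.03 times the median of the others. Per kilobase of annotated exon, Napsa averaged 76.8 CPM, above 96.0% of the 14086 tested genes with a matched length, and Sftpc averaged 3.94 CPM per kilobase. Napsa thus did not follow the surfactant genes from library to library. Antisense gene Gm15396 shares 502 exon bases with Napsa (18.9% of its exon length) and itself averaged 0.0563 CPM.

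The other type II genes were scarce. Lyz1, a lysozyme gene of type II and Paneth cells, averaged 0.433 ± 0.133 CPM in WT and 0.614 ± 0.30 CPM in P2ry14-null (SD, n = 5 each) and in P2ry14-null library 2 stood at 2.60 times the median of the others. Nkx2-1 rested on 7 to 16 reads in 9 libraries and on 49 in P2ry14-null library 2, a rate ratio to the pooled others of 4.08 (exact 95% interval 2.83 to 5.81). The interval covers counting error only.

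Other type II genes, from a list of alveolar genes outside the 34, split in the same way. Slc34a2, the phosphate transporter of type II cells, was 11.8 times the median of the others in P2ry14-null library 2. The ratio was 7.47 for the lysosomal membrane gene Lamp3, 8.26 for the lung chemokine Cxcl15 and 7.34 for Chil1. It was 1.02 for the surfactant lipid transporter Abca3 (47.1 CPM on average) and 1.09 for the lipid enzyme Lpcat1 (14.6 CPM). Abca3, Lpcat1 and Napsa were thus level across libraries that differed 7.97-fold in surfactant protein transcripts. The list also holds the type I genes Pdpn, Aqp5, Rtkn2, Clic5 and Akap5. In P2ry14-null library 2 these stood at 1.48, 2.25, 1.47, 1.46 and 1.15 times the median of the others, Aqp5 on 20 reads. Of the 12 genes of this whole list, 11 were tested and edgeR called 0. At an unadjusted p under 0.05 there were 4 of 11 with all libraries, where the share over all tested genes was 4.13%, and 0 without P2ry14-null library 2. Log2 fold changes (P2ry14-null minus WT) lay above 0 for 11 of the 11 with that library and for 8 without it. With that library, 51.2% of all tested genes lay above 0.

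Type I markers were mixed. Ager, the receptor for advanced glycation end products and a type I surface marker, stood at 6.62, 6.79, 5.23, 5.30 and 4.66 CPM in WT libraries 1 to 5 and at 6.21, 5.86, 4.68, 5.45 and 5.36 CPM in P2ry14-null libraries 1 to 5. Its level in P2ry14-null library 2 was 1.09 times the median of the others, and the groups overlapped. Hopx, a homeodomain protein gene of type I cells, stood at 1.21, 0.720, 0.888, 1.18 and 0.684 CPM in WT libraries 1 to 5 and at 0.741, 1.54, 1.02, 0.963 and 1.31 CPM in P2ry14-null libraries 1 to 5. Hopx was highest in P2ry14-null library 2, at 1.60 times the median, and shares 412 exon bases with antisense Hopxos. Cldn18, a lung tight junction gene, stood at 0.122, 0.176, 0.116, 0.0767 and 0.161 CPM in WT libraries 1 to 5 and at 0.178, 0.525, 0.204, 0.124 and 0.160 CPM in P2ry14-null libraries 1 to 5. Of these 3 genes, only Cldn18 exceeded 2 times the median of the others in P2ry14-null library 2.

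Scgb1a1 was the most abundant of the airway transcripts and varied widely between libraries. It encodes the club cell secretory protein (gene ID 22287, chromosome 19, 9083642 to 9087956, minus strand). Scgb1a1 stood at 18.8, 19.0, 13.7, 9.51 and 7.87 CPM in WT libraries 1 to 5 and at 9.75, 35.9, 7.99, 11.7 and 2.49 CPM in P2ry14-null libraries 1 to 5. P2ry14-null library 2 was again the highest and library 5 the lowest, and the WT libraries alone spanned 7.87 to 19.0 CPM. The coefficient of variation over the 9 libraries other than P2ry14-null library 2 was 47.6%, against 2.66% from counting alone. For Scgb3a2 it was 53.7% against 23.8%, and for Muc5b 48.1% against 26.5%.

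Scgb1a1 did not keep a fixed proportion to Sftpc. Among the reads of these 2 genes, Scgb1a1 made up 64.3% (Wilson 95% interval 63.3 to 65.3) in P2ry14-null library 2, the lowest share of the 10. It made up 90.4% (Wilson 95% interval 89.3 to 91.5) in WT library 3, the highest. Scgb1a1 and Sftpc thus varied from library to library by different factors, beyond counting error. Scgb3a2, a related secretoglobin gene, rested on 2 to 34 reads per library. It read 0.259, 0.201, 0.132, 0.173 and 0.177 CPM in WT libraries 1 to 5 and 0.148, 0.208, 0.0611, 0.0932 and 0.0128 CPM in P2ry14-null libraries 1 to 5. Here P2ry14-null library 2 was not the highest. Muc5b, an airway mucin gene, stood at 0.0915, 0.0921, 0.149, 0.115 and 0.115 CPM in WT libraries 1 to 5 and at 0.237, 0.123, 0.0883, 0.0544 and 0.0705 CPM in P2ry14-null libraries 1 to 5. P2ry14-null library 1 was its highest. Muc5b rested on 7 to 27 reads, with 0.113 ± 0.0234 CPM in WT and 0.115 ± 0.0731 CPM in P2ry14-null (SD, n = 5 each).

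Among 11 further airway genes the summed level in P2ry14-null library 2 was 1.38 times the median of the others. The ciliated cell gene Tppp3 stood there at 1.34 times, the lactoferrin gene Ltf at 1.03 times and the club cell enzyme gene Cyp2f2 at 3.80 times. Tppp3 supplied 12.6 of the 19.1 CPM of that sum, which thus mainly follows this gene. Of the 11, 6 were tested and edgeR called 0, with 0 at an unadjusted p under 0.05. Among these 6, 3 exceeded 2 times the median of the others in P2ry14-null library 2, against 3.73% of all tested genes.

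Genes that most epithelia share also parted into a flat abundant gene and scarce genes. Krt18, a type I keratin gene of simple epithelia, stood at 29.1, 28.3, 24.3, 24.7 and 25.1 CPM in WT libraries 1 to 5 and at 26.6, 24.5, 25.1, 25.5 and 24.1 CPM in P2ry14-null libraries 1 to 5. Its usual partner Krt8 averaged 0.110 CPM over 8 to 35 reads per library. Per kilobase the pair averaged 17.9 and 0.0562 CPM, so Krt18 was present without a comparable level of Krt8. Cdh1, the E-cadherin gene, stood at 2.21, 1.78, 1.94, 1.87 and 1.63 CPM in WT libraries 1 to 5 and at 1.65, 4.75, 1.49, 2.12 and 1.78 CPM in P2ry14-null libraries 1 to 5. P2ry14-null library 2 held 2.66 times the median of the others, with no overlap of its value with any other library. For the epithelial adhesion gene Epcam that ratio was 2.31, for Krt8 2.53 and for Krt19, another simple-epithelial keratin gene, 1.96. Epcam stood at 0.206, 0.151, 0.171, 0.185 and 0.131 CPM in WT libraries 1 to 5 and at 0.267, 0.415, 0.129, 0.194 and 0.179 CPM in P2ry14-null libraries 1 to 5. Its groups overlapped.

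Endothelial genes fell into the same 2 patterns. Pecam1, the adhesion molecule CD31, is known from leukocytes and platelets as well as endothelium (gene ID 18613, chromosome 11, 106654213 to 106750623, minus strand). Pecam1 stood at 226, 207, 222, 219 and 231 CPM in WT libraries 1 to 5 and at 234, 217, 204, 209.8 and 201 CPM in P2ry14-null libraries 1 to 5. It averaged 34.9 CPM per kilobase, above 90.8% of tested genes with a length, and P2ry14-null library 2 held 0.989 times the median of the others. The 4 genes of vascular identity were scarce in 9 libraries and higher in P2ry14-null library 2. Cdh5, VE-cadherin, stood at 0.160, 0.176, 0.160, 0.0895 and 0.146 CPM in WT libraries 1 to 5 and at 0.0445, 0.778, 0.0883, 0.148 and 0.135 CPM in P2ry14-null libraries 1 to 5. Kdr, the VEGF receptor 2, stood at 0.0610, 0.0921, 0.0331, 0.0640 and 0.0998 CPM in WT libraries 1 to 5 and at 0.0741, 0.428, 0.0679, 0.140 and 0.0961 CPM in P2ry14-null libraries 1 to 5. In P2ry14-null library 2 these were 5.33 and 5.78 times the median of the others. The tight junction gene Cldn5 had 80 reads there and 3 to 14 elsewhere, a rate ratio of 9.03 (exact 95% interval 6.47 to 12.6). Tek, the angiopoietin receptor, had 30 reads there and 5 to 19 elsewhere, a rate ratio of 3.04 (exact 95% interval 1.93 to 4.68). In CPM, Tek was at 0.195 there and close to that, at 0.159, in WT library 2. Both intervals cover counting error only. Cldn5 and Tek were the 2 of the 34 genes that did not pass the low-count filter, which leaves 32 tested.

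Among 14 further endothelial genes, 12 were highest in P2ry14-null library 2. Of the 10 tested, 8 were, against 11.6% of all tested genes. The von Willebrand factor gene Vwf stood at 4.18 times the median of the others and the receptor kinase Tie1 at 3.94 times, on 36 reads. Car4, a carbonic anhydrase gene, averaged 475 CPM and Calcrl 9.81 CPM, with ratios of 1.28 and 0.984. Car4 is also counted among the alveolar macrophage genes below. Of these 14 genes, 10 were tested and edgeR called 0. At an unadjusted p under 0.05 there was 1 of 10, against 4.13% of all tested genes. Log2 fold changes lay above 0 for 10 of the 10 with P2ry14-null library 2 and for 5 without it. With that library, 51.2% of all tested genes lay above 0.

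Fibroblast and matrix genes did not peak together. Fn1, the fibronectin gene, which macrophages and platelets are also known to hold, was the abundant one (gene ID 14268, chromosome 1, 71585473 to 71653234, minus strand). Fn1 stood at 53.1, 68.4, 67.7, 72.1 and 69.3 CPM in WT libraries 1 to 5 and at 46.2, 184, 48.6, 61.4 and 69.3 CPM in P2ry14-null libraries 1 to 5. P2ry14-null library 2 held 2.72 times the median of the others. The secreted matrix protein gene Sparc did not set that library apart. Sparc stood at 3.28, 2.29, 1.96, 1.74 and 2.13 CPM in WT libraries 1 to 5 and at 2.46, 3.09, 2.95, 2.92 and 2.01 CPM in P2ry14-null libraries 1 to 5. Col3a1, a fibrillar collagen gene, stood at 2.23, 1.43, 1.31, 1.40 and 1.59 CPM in WT libraries 1 to 5 and at 2.39, 2.0, 1.97, 1.85 and 1.66 CPM in P2ry14-null libraries 1 to 5. Both had overlapping groups, and P2ry14-null library 2 stood at 1.35 and 1.2 times the median of the others.

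The fibroblast genes Col1a1, Col1a2, Dcn and Pdgfra read 0.947, 0.833, 1.03 and 0.743 times the median in P2ry14-null library 2. Col4a1, a basement membrane collagen that endothelial cells also make, read 1.79 times. Without Fn1, the remaining 8 genes of the class summed to 7.84 ± 1.30 CPM in WT and 9.22 ± 1.006 CPM in P2ry14-null (SD, n = 5 each), with P2ry14-null library 2 at 10.1 CPM and WT library 1 at 10.03 CPM. In 18 further fibroblast, mural and mesothelial genes, the summed level in P2ry14-null library 2 was 0.978 times the median of the others, with the collagen gene Col5a1 at 0.867 and the proteoglycan gene Bgn at 1.14 times. Of the 18, 12 were tested and edgeR called 0, with 1 at an unadjusted p under 0.05, against 4.13% of all tested genes. The mural genes did not peak in that library either. Acta2, smooth muscle actin, stood at 13.0, 12.4, 11.2, 11.4 and 12.1 CPM in WT libraries 1 to 5 and at 11.8, 11.8, 10.4, 11.5 and 10.5 CPM in P2ry14-null libraries 1 to 5. Pdgfrb, a platelet-derived growth factor receptor gene of pericytes, stood at 3.03, 3.55, 2.99, 3.19 and 3.31 CPM in WT libraries 1 to 5 and at 3.05, 2.61, 2.5, 2.88 and 2.82 CPM in P2ry14-null libraries 1 to 5. Its means were 3.22 ± 0.226 CPM in WT and 2.77 ± 0.219 CPM in P2ry14-null (SD, n = 5 each), the groups overlapped, and P2ry14-null minus WT came to -0.22 ± 0.09 on the log2 scale (SE, with an edgeR adjusted p of 0.999).

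Eln, the elastin gene, is described because it was the 1 of the 34 whose groups did not overlap, and it was chosen after its values were seen (gene ID 13717, chromosome 5, 134702595 to 134747368, minus strand). Eln stood at 0.930, 0.502, 0.778, 0.640 and 0.707 CPM in WT libraries 1 to 5 and at 1.008, 1.006, 1.09, 1.44 and 0.955 CPM in P2ry14-null libraries 1 to 5. The means were 0.711 ± 0.159 CPM in WT and 1.10 ± 0.195 CPM in P2ry14-null (SD, n = 5 each). All 5 P2ry14-null libraries lay above all 5 WT libraries, the closest values being 0.955 CPM in P2ry14-null library 5 and 0.930 CPM in WT library 1. The log2 fold change (P2ry14-null minus WT) was 0.63 ± 0.17 (SE), and the edgeR adjusted p over all genes was 0.999. Of all 15586 tested genes, 0.648% separated the groups, and of the 32 tested structural genes 3.12% did. In P2ry14-null library 2 Eln was 1.08 times the median of the others, and without that library the log2 fold change was 0.66 ± 0.18 (edgeR adjusted p = 0.949).

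Between genotypes, none of the 32 tested transcripts passed. The edgeR quasi-likelihood test, adjusted by Benjamini-Hochberg over 15586 genes, called 0 of the 32 tested structural genes, where 6 genes (0.0385%) were called in all. Every one of the 32 had an adjusted p of 0.999. At an unadjusted p under 0.05 there were 6 of the 32 (18.8%), against 4.13% of all tested genes: Sftpb, Sftpc, Cldn18, Kdr and Eln with positive and Pdgfrb with negative log2 fold changes. Without P2ry14-null library 2 there were 3, against 4.08% of all tested genes: Eln remained, Sftpb, Sftpc, Cldn18, Kdr and Pdgfrb no longer passed, and Scgb1a1 and Scgb3a2, both with negative log2 fold changes, came in. DESeq2 called 0 of the 33 genes for which it gave an adjusted p (16 genes in all, 0.0824% of those with one), with Eln at the smallest adjusted p (0.232). DESeq2 fitted a log2 fold change of 1.35 for Sftpc but gave it no adjusted p, so Sftpc is not among the 33. Without P2ry14-null library 2 edgeR called 0 of the 32 and 0.0193% of all genes, and without the low-count filter 0 of the 34 and 0.0238%.

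Log2 fold changes above 0 were seen for 21 of the 32, with a median of 0.31, where 51.2% of all tested genes lay above 0 and their median was 0.0025. When P2ry14-null library 2 was left out, 15 of 32 lay above 0 and the median was -0.03. Of the 32, the 4 surfactant genes moved most with that library. Their log2 fold changes were 1.36 ± 0.62 for Sftpc, 1.43 ± 0.61 for Sftpb, 1.10 ± 0.63 for Sftpa1 and 1.17 ± 0.65 for Sftpd (SE). Without that library they were 0.01 ± 0.24, 0.15 ± 0.26, -0.24 ± 0.29 and -0.14 ± 0.34. Kdr went from 1.29 ± 0.52 to 0.49 ± 0.36 and Cdh5 from 0.78 ± 0.59 to -0.40 ± 0.31. The edgeR adjusted p of all these values was 0.999 or higher.

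For Scgb1a1 and Scgb3a2, log2 fold changes lay below 0 and farther below it without P2ry14-null library 2. Scgb1a1 went from -0.02 ± 0.51 to -0.80 ± 0.36 and Scgb3a2 from -0.88 ± 0.46 to -1.42 ± 0.43 (SE; edgeR adjusted p = 0.999 with and 1.00 without that library). Mean Scgb1a1 was 13.8 ± 5.13 CPM in the 5 WT libraries and 7.99 ± 3.96 CPM in the remaining 4 P2ry14-null libraries. The groups overlapped for both genes. The abundant flat genes had narrow errors: -0.05 ± 0.07 for Napsa, -0.05 ± 0.05 for Pecam1, -0.07 ± 0.06 for Krt18 and -0.11 ± 0.06 for Acta2 on the log2 scale. The median SE was 0.28 over the 32 genes and 0.09 over all tested genes, so that differences of the scarce genes were measured less precisely than those of most genes.

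**Figure D2:**
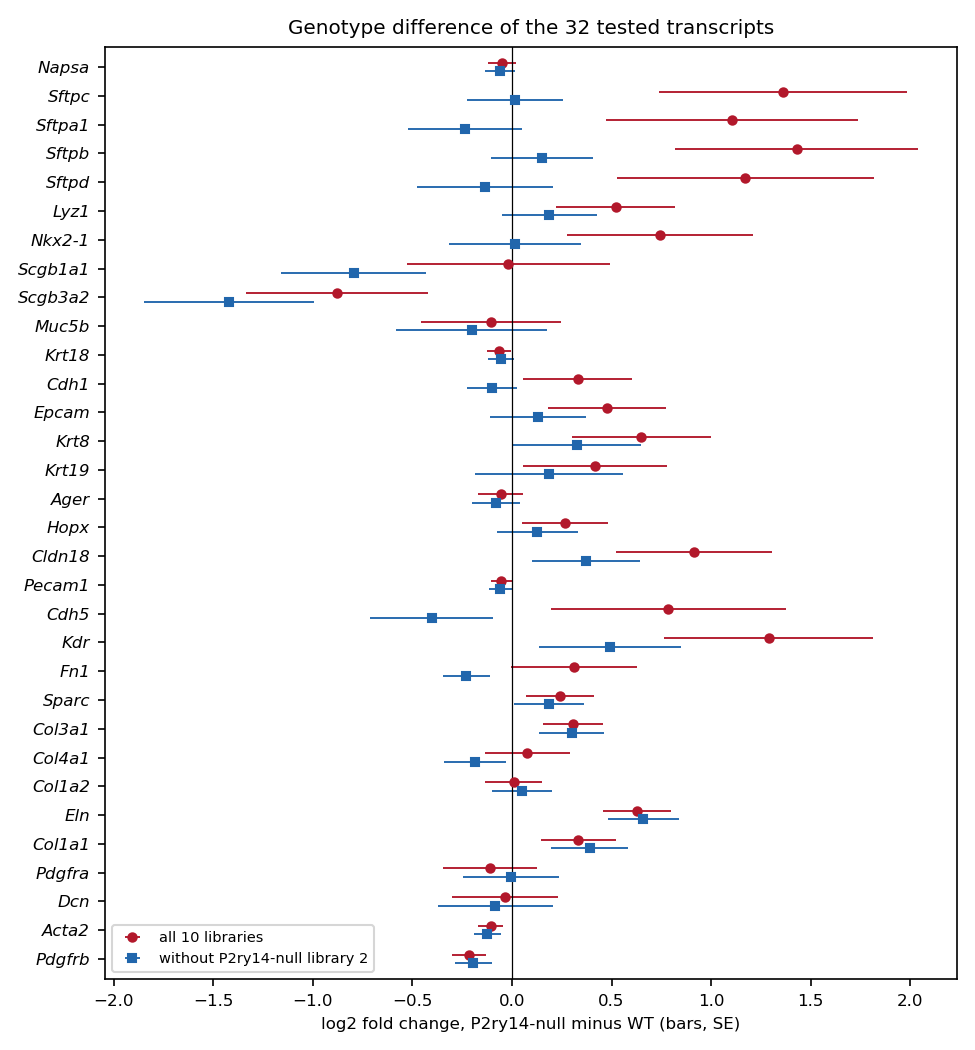
Log2 fold change, P2ry14-null minus WT, of the 32 tested transcripts with all 10 libraries (red) and without P2ry14-null library 2 (blue), with bars for the SE of the edgeR fit. The surfactant, Kdr and Cdh5 values move toward or past 0 when that library is left out, and Napsa, Pecam1, Krt18 and Acta2 stay near 0.

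P2ry14-null library 2 held the highest value of 19 of the 34 genes (55.9%), against 11.6% of all tested genes. These were 6 of 7 type II, 4 of 5 endothelial, 4 of 5 pan-epithelial, 2 of 3 type I, 1 of 3 airway, 2 of 9 fibroblast and 0 of 2 mural genes. It exceeded 2 times the median of the other 9 libraries for 16 of the 34, and for 14 of the 32 tested (43.8%), against 3.73% of all tested genes. In 7 genes it exceeded 5 times: the 4 surfactant genes, Kdr, Cdh5 and Cldn5. In 11 it stayed under 1.2 times. No gene of the 34 was lowest in this library, while P2ry14-null library 5 was the lowest for 9.

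**Figure D3:**
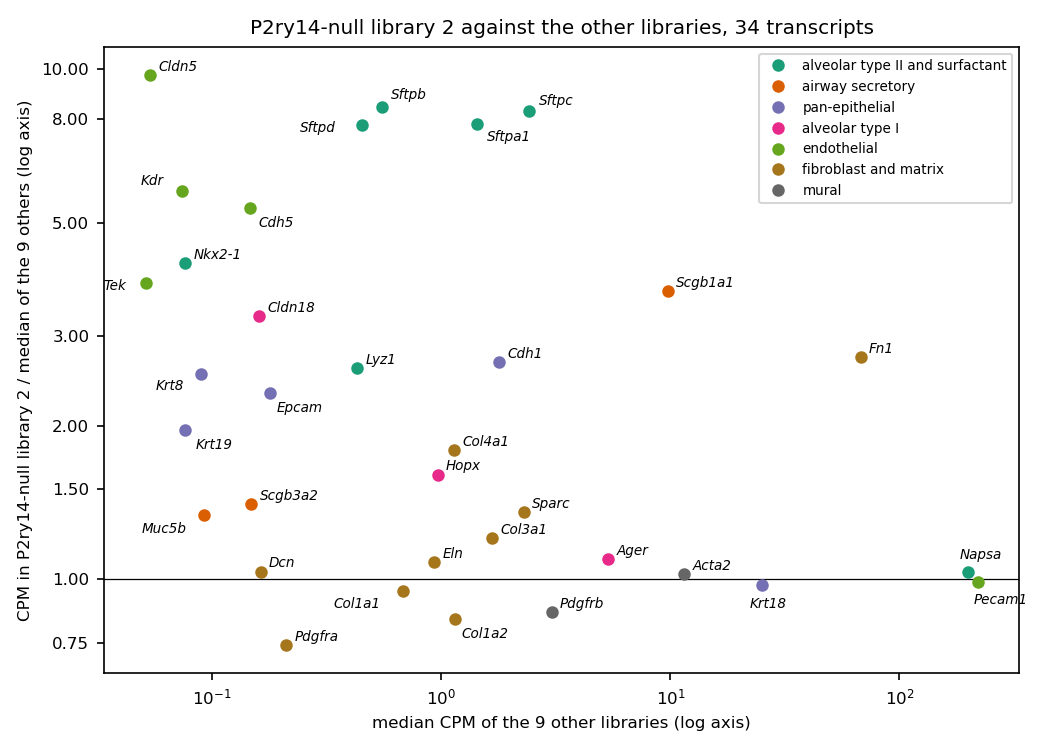
CPM in P2ry14-null library 2 divided by the median of the other 9 libraries, against that median, both on log axes, for the 34 transcripts colored by class. Ratios run from 0.743 for Pdgfra to 9.73 for Cldn5, and Napsa and Pecam1, far right, lie at 1.03 and 0.989.

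**Figure D4:**
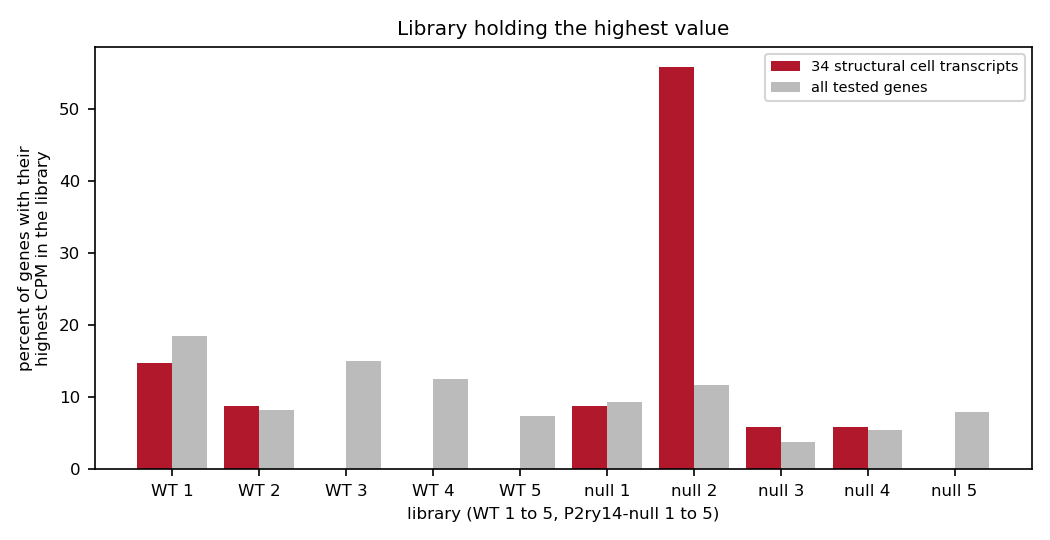
Percent of genes whose highest CPM lies in each library, for the 34 transcripts (red) and all tested genes (grey). P2ry14-null library 2 holds 55.9% of the red and 11.6% of the grey maxima.

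Transcripts of immune cells moved with these genes in that library. The 8 MHC class II genes are used by antigen-presenting cells. They summed to 455 CPM in P2ry14-null library 2 and to 88.4 to 162 CPM in the others. Of the 8, 7 were highest in that library, against 11.6% of all tested genes. The 14 alveolar macrophage genes summed to 2307 CPM there and to 762 to 1050 CPM in the others. Of the 14, 10 were highest there, against the same 11.6%. Chil3, a chitinase-like protein of alveolar macrophages, held most of the macrophage sum there at 1520 CPM. The scavenger receptor gene Marco had 12 reads there and up to 17 in another library. Among the 12 tested macrophage genes, 9 exceeded 2 times the median of the others there, against 3.73% of all tested genes. Car4 did not, at 590 CPM there against a median of 461 CPM in the others, which is a large part of the macrophage sum. The 10 B and T cell genes summed to 27.9 CPM there and to at most 21.9 CPM elsewhere. Of these 10, 8 were highest there, against 11.6% of all tested genes, and 5 exceeded 2 times the median of the others, against 3.73%. Sums of eosinophil, neutrophil, and platelet and red cell genes in that library were 0.967, 0.904 and 0.934 times the median of the others, and Itga2b supplied 96.2 of the 101 CPM of the platelet and red cell sum. The eosinophil list and the macrophage list share Ear1. The neutrophil list averaged 4127 CPM in the other 9 libraries, nearly all from Retnlg, while Elane was at 0 in all 10. In P2ry14-null library 2 the leading class II genes Cd74 and H2-Aa stood at 3.49 and 4.39 times the median of the others, and the B cell receptor genes Cd79a and Cd79b at 1.37 and 1.73 times. The leading eosinophil-list genes Alox15 and Cd24a stood at 0.944 and 0.961 times, S100a9 of the neutrophil list at 1.11 times, and the platelet integrin Itga2b and the globin Hbb-bs at 0.928 and 1.015 times. Single genes of both lists went the other way: the platelet chemokine Pf4 stood at 4.89 times and the neutrophil protein gene S100a8 at 4.68 times, both named after their values were seen.

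Between genotypes, edgeR called 0 genes of these immune and blood lists. With all libraries, the neutrophil list had 3 of 6 tested genes at an unadjusted p under 0.05, against 4.13% of all tested genes. It had 6 of 6 log2 fold changes above 0, against 51.2% of all tested genes. Without P2ry14-null library 2 it had 2 and 5 of 6. The class II list had 0 of 8 at that p with all libraries and 5 of 8 without P2ry14-null library 2, where 4.08% of all tested genes reached it. Its log2 fold changes lay above 0 for 7 of 8 with that library and for 0 without it. The alveolar macrophage list had 0 of 12 at that p with the library and 5 without it, and 9 and 2 of 12 log2 fold changes above 0. The corresponding counts at that p were 0 and 1 of 10 for B and T cell genes and 0 and 0 of 8 for platelet and red cell genes. P2ry14-null library 2 was singled out after its high class II and macrophage values were seen. Leaving it out lowers the P2ry14-null means of genes high in it, so no genotype difference is drawn from the counts without it. The part of these immune and blood cells in the structural transcripts was not tested.

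**Figure D5:**
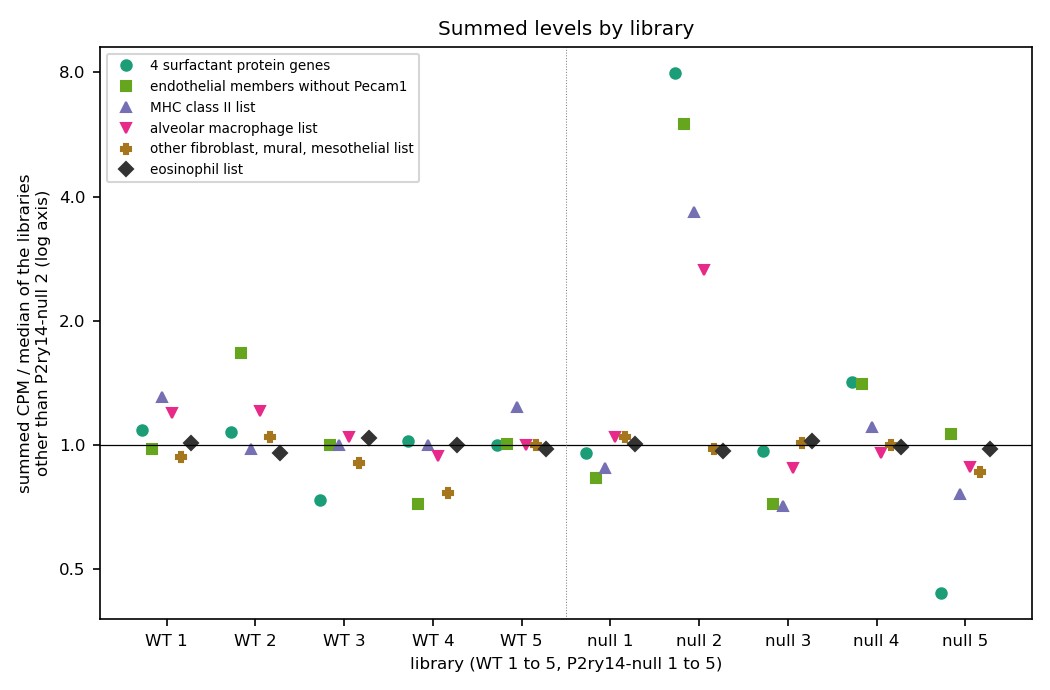
Summed CPM of gene groups in each library divided by the median over the libraries other than P2ry14-null library 2, on a log axis, with markers shifted sideways for legibility. In P2ry14-null library 2 the surfactant genes reach 7.98 and endothelial genes without Pecam1 reach 6.00, while eosinophil genes stay at 0.967 and further fibroblast, mural and mesothelial genes at 0.978.

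The summed surfactant transcripts amounted to 0.00392% of all CPM in P2ry14-null library 2 and to 0.000491% at the median of the others. For the 12 eosinophil genes the corresponding figures were 1.42% and 1.47%. Among the other 9 libraries, 18 of the 34 genes had a coefficient of variation above 2 times that of counting alone, and 10 lay within 1.5 times of it. Scgb1a1 and Sftpc (26.7% against 5.86%) were among the former. For Krt8 (34.8% against 28.6%), Nkx2-1 (29.6% against 31.4%) and Kdr (37.5% against 31.3%), differences among these 9 libraries were close to what this depth can show.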

How the data were processed

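RNA from sorted lung eosinophils of 5 P2ry14-null and 5 WT libraries was read from 1 table of whole-number read counts per gene, which the authors deposited without normalization. The tools named per the submitters' processing notes are DESeq2, featureCounts 1.5.0-p1, Subread and STAR 2.5, with build mm10, and per the labels' protocols libraries came from an Illumina TruSeq RNA kit. The sources used here do not give the annotation, strand setting or handling of multi-mapping reads, so overlapping and antisense genes cannot be told apart.

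Counts were fitted with edgeR 4.0.16 in R 4.3.3 (TMM factors, default low-count filter, genotype alone, quasi-likelihood F test, Benjamini-Hochberg over 15586 genes, threshold 0.05). The procedure was tested on simulated data without an outlying library, so that test does not cover genes that are high in 1 library. Each SE was taken as the size of the log2 fold change over the root of its F statistic. Alternatives were DESeq2 1.42.0, other scaling, no filter, a replicate block and single libraries left out. Members and gene lists were chosen with earlier results of these data known. Values in every library are given for the 3 most abundant genes of each class and for those with at least 10 CPM, the 2 most abundant genes of each comparison list are named, and other genes were named after their values were seen. Sums and ratios between libraries have no test. Exon lengths are unions of GENCODE vM21 exons, matched by symbol and position. Chi-square per gene was at least 22.2 for library pairs within a group, so none was a duplicate. Libraries held 67161968 to 185124080 counts.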

Additional observations from a re-analysis of the deposited data

Results flagged for a closer look

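In groups of 5, a library was singled out when its gap to the nearest other library exceeded 0.71 of the group's range (Dixon's test), which chance gives in about 5% of groups. Of 68 gene and group combinations, 18 were singled out, 12 of them for high values in P2ry14-null library 2. That library was high in Sftpc (19.9 CPM, nearest P2ry14-null library 3.06), Sftpa1 (11.2, nearest 2.17), Sftpb (4.66, nearest 0.940) and Sftpd (3.51, nearest 0.831). It was also high in Scgb1a1 (35.9), Cldn18 (0.525), Cdh1 (4.75), Nkx2-1 (0.318), Kdr (0.428), Cdh5 (0.778), Cldn5 (0.519) and Fn1 (184 CPM). Summed CPM set it apart for the type II class (247), the airway class (36.2) and the fibroblast and matrix class (194). The same held for further endothelial genes (606), alveolar macrophage genes (2307) and class II genes (455 CPM). Car4, counted in both the endothelial and the macrophage list, supplied 590 of the 606 CPM, at 1.28 times the median of the others.

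Other libraries were singled out by single genes. WT library 2 was high in Sftpa1 (1.89 CPM) and Tek (0.159 CPM), and WT library 1 was high in Pdgfra (0.305 CPM). WT library 1 was low in Fn1 (53.1 CPM) and in the fibroblast and matrix sum that Fn1 leads (63.2 CPM). P2ry14-null library 4 was high in Eln (1.44 CPM) and P2ry14-null library 5 low in Dcn (0.0897 CPM).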

How the results depend on the processing

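No setting tried called any of the 34 genes it tested: edgeR with size factors of the DESeq2 kind (RLE), without the low-count filter, with the replicate number as a block, or with each of the 10 libraries left out, and DESeq2, which gave no adjusted p for Sftpc. Over the whole table, DESeq2 called 16 genes where edgeR called 6, and single libraries left out gave 3 to 5 (3 without P2ry14-null library 1, 2, 3 or 5 or WT library 4). Of 448 refitted log2 fold changes of the 32 genes, 28 changed sign, over 13 genes. With single libraries left out these ran, on the log2 scale, as follows: Sftpa1 -0.24 to 1.39, Sftpd -0.14 to 1.45, Scgb1a1 -0.80 to 0.26, Ager -0.12 to 0.015, Cdh1 -0.099 to 0.47, Napsa -0.11 to 0.00101, Muc5b -0.42 to 0.072, Cdh5 -0.40 to 1.01, Col1a2 -0.087 to 0.059, Col4a1 -0.19 to 0.22, Dcn -0.17 to 0.12, Pdgfra -0.33 to 0.017 and Fn1 -0.23 to 0.46. Without the low-count filter Col1a2 was at -0.0012. The cause was not tested, but 6 of these sign changes came with P2ry14-null library 2 left out. The ratio of summed levels, P2ry14-null to WT, was, with all libraries and without P2ry14-null library 2, 0.999 and 0.959 for type II, 1.012 and 0.973 for type I, 0.979 and 0.581 for airway, 0.981 and 0.963 for pan-epithelial, 0.966 and 0.960 for endothelial, 1.23 and 0.884 for fibroblast and matrix and 0.916 and 0.909 for mural genes. Without the most abundant gene of each class, an alternative added after seeing the data, the same pair of ratios was 2.30 and 0.975 (without Napsa), 1.27 and 1.10 (without Ager), 0.729 and 0.636 (without Scgb1a1), 1.28 and 0.970 (without Krt18), 1.86 and 0.935 (without Pecam1), 1.18 and 1.15 (without Fn1) and 0.863 and 0.875 (without Acta2). With the replicate block, edgeR called 6 genes and 0 of the 32. The block moved several log2 fold changes by over 1.5 times: Sftpa1 1.10 to 0.29, Sftpb 1.43 to 0.71, Sftpc 1.36 to 0.58, Sftpd 1.17 to 0.40, Scgb1a1 -0.02 to -0.41, Cdh1 0.33 to 0.19, Cdh5 0.78 to 0.29, Col4a1 0.08 to 0.0045 and Fn1 0.31 to 0.09. Libraries sharing a number showed no shared deviation over all genes (correlation -0.0933 to 0.094, 2 of 10 libraries correlating best with their own number). No pairing by number was seen at that scale, and a shared factor that moves few genes was not tested. Genes resting on few reads, such as Cldn5 and Tek, were limited by depth.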
